A study of Homo sapiens with 6 samples.

Results

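Interferon-stimulated effector genes are the output genes of the interferon response, the antiviral programme that a cell starts when interferon binds its receptors. A hand-written set of 57 of them was followed here, out of 25545 genes with values, in BT-549 cells with and without silencing of NEAT1, the long noncoding RNA that builds paraspeckles. The genes were chosen by name, with earlier results of these data known, and grouped by what their proteins do: the IFIT RNA-binding proteins, the OAS enzymes with RSAD2 and CMPK2, the MX GTPases with the membrane restriction factors, the ISG15 pathway, TRIM proteins, the PARP enzymes with DTX3L, the IFI genes, regulators of growth and death, nuclear body proteins with RNA or dNTP enzymes, guanylate-binding proteins, and the chemokines CXCL10 and CXCL11. Of the 57, 49 had a mean TPM (a length-scaled expression level that sums to 1000000 in each library) of at least 1 over the 6 libraries and were tested. The other 8 are given by their values further on.

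BT-549 cells are a long-established line from a triple-negative breast cancer and have a mesenchymal character. RNA-seq was performed on 3 cultures transfected with a control siRNA (BT-549/tet-NEAT1CsiRNA in the labels, CsiRNA below) and 3 transfected with an siRNA against NEAT1 (BT-549/tet-NEAT1siRNA, NEAT1siRNA below). All 6 were grown in RPMI1640 with 10% FBS and insulin and were collected 48 h after transfection, without added interferon in any label. The prefix tet in the labels is not explained there. The comparison rests on 1 cell line, 1 siRNA name per group and 1 time point, and whether the 3 cultures of a group came from separate passages is not stated, so the p-values measure the spread between these cultures, which may be technical. The bulk values cannot tell a change in the number of responding cells from a change in RNA per cell.

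Transcripts of NEAT1 were at 13.4, 7.68 and 10.8 TPM with CsiRNA and at 4.36, 2.96 and 2.73 TPM with NEAT1siRNA, so that the targeted RNA was lower in each silenced library than in any control (log2 fold change -1.41, SE 0.14, limma adjusted p = 1.21e-07). Recovered reads numbered 17246575 to 20343890 per library with CsiRNA and 15787040 to 20178843 with NEAT1siRNA. In all libraries, 4 short RNAs (RN7SK, RN7SL1, RN7SL2 and RPPH1) held 64.4 to 68.1% of the TPM and 2.30 to 3.01% of the reads, which leaves the remaining genes with low TPM for their reads. The 5 mesenchymal markers VIM, FN1, CDH2, ZEB1 and AXL ranged from 13.5 to 1112 TPM, and FN1 and CDH2 among them fell. Of the 5 luminal or epithelial markers, ESR1, PGR and EPCAM were at most 0.0301 TPM and KRT8 at most 0.283 TPM, while the keratin gene KRT18 was at 1.04 to 2.07 TPM (log2 fold change 0.29, adjusted p = 0.0801). The 7 immune markers (PTPRC, CD3E, CD14, CD79A, ITGAX, CLEC4C and HLA-DRA) were at most 0.369 TPM and the endothelial markers PECAM1 and CDH5 at most 0.0125 TPM.

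Type I interferons signal through IFNAR1 and IFNAR2 and the kinases JAK1 and TYK2 to a complex that holds STAT2 and IRF9 and binds an interferon-stimulated response element (ISRE) near the start of its target genes. Interferon gamma acts through another element, the gamma-activated sequence (GAS). Double-stranded RNA and cytosolic DNA start the response through sensors such as IFIH1, TLR3 and CGAS. Many of the output genes are kept at a low level without interferon, and a tonic level is known in many tumor cell lines.

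The promoters of these genes were searched for the ISRE, each at the start listed for the gene, and other starts were not searched. RefSeq promoters (GRCh38.p14, 250 bases before the start of transcription to 50 after it) matched 47 of the 57 genes by symbol, and IFIT2, OAS2, OASL, MX2, IFITM2, LY6E, USP18, TRIM22, ZNFX1 and GBP2 were without a match. The ISRE core GAAANNGAAA, searched on both strands, was in 29 of the 47 promoters and in 3.65% of all 27305 promoters of the same length. It was in 12 of 16 genes that rose with NEAT1siRNA, in 14 of 26 that were tested and did not rise, and in 3 of 5 that were under the filter. The GAS letters TTCNNNGAA were in 12 of the 47 and in 7.88% of all promoters, with 5 of 16 among genes that rose and 6 of 26 among those that did not. A shorter form with 1 base between the repeats, GAAANGAAA, was searched after the sequences had been seen. It was in 16 of the 47 promoters and 3.22% of all promoters, and its matches can overlap GAS matches, as they did in PARP14 and IFI35.

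The 250 bases before the start are shown for 5 genes, 5′ to 3′ on the gene's strand, as examples of promoters with and without the full core. IFIT1 and IFI44L rose and have the core at 2 places. ISG15, which was not past the threshold, has 2 overlapping copies. OAS1, with the largest log2 fold change, and PNPT1, the gene that fell, lack the full core and hold the form with 1 base between. Each also has 1 GAS match, left in lower case. Capitals mark the core, or its shorter form in OAS1 and PNPT1.
IFIT1 (chr10:89392373-89392622, plus strand): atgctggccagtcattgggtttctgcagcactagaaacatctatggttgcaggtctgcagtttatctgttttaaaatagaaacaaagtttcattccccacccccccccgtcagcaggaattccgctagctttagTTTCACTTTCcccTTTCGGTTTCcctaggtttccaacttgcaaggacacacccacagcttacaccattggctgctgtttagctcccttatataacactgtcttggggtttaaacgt
IFI44L (chr1:78620198-78620447, plus strand): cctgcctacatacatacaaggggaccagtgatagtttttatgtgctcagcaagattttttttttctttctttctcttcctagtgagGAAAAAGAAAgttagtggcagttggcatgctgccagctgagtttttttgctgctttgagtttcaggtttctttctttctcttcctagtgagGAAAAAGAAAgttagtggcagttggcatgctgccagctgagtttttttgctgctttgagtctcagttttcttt
ISG15 (chr1:1013247-1013496, plus strand): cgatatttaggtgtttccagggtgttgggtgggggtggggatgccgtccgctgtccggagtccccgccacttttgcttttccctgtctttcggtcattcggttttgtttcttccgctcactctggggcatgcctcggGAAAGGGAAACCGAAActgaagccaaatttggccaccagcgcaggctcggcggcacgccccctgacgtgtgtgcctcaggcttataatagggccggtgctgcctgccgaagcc
OAS1 (chr12:112906712-112906961, plus strand): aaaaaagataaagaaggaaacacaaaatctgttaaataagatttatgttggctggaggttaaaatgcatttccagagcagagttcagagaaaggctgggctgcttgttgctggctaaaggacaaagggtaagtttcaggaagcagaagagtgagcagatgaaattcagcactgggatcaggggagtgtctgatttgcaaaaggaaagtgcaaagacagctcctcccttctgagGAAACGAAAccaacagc
PNPT1 (chr2:55693845-55694094, minus strand): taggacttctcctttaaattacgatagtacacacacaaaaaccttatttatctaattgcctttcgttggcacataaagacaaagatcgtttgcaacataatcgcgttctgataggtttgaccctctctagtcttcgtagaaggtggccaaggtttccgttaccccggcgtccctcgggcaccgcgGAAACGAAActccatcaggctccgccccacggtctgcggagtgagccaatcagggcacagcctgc

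The same full core thus stands in front of genes that rose and of a gene that was not past the threshold, and the gene that fell shares the shorter form with OAS1. A match of letters describes the window and is not a measured binding site. A missing match holds only for the start chosen. The OAS1 window, for example, lies inside the annotated gene, which begins at base 112905856.

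Expression of 18 of the 49 tested genes was higher with NEAT1siRNA than with CsiRNA at an adjusted p under 0.05 (limma on log2(TPM + 1), Benjamini-Hochberg over 10721 genes), 1 was lower and the remaining 30 missed it. Over all genes tested, 4.99% were higher (535) and 8.98% lower (963). With each library centred on its median the split over all genes became 1158 higher (10.8%) and 954 lower (8.90%), and the count among the 49 became 28 higher and 1 lower. Leaving out 1 library at a time gave 12 to 17 higher and 0 to 2 lower, with 14 and 2 when NEAT1siRNA replicate 2 was left out. Over all 10721 genes these fits gave 376 to 540 higher and 383 to 1590 lower, with 493 and 1590 without NEAT1siRNA replicate 2. The genes that rose were IFIT1, IFIT2, IFIT3, IFIT5, OAS1, OAS2, MX1, IFITM1, UBE2L6, PARP9, PARP14, DTX3L, IFI44, IFI44L, NMI, SAMD9, SAMD9L and EPSTI1, and the gene that fell was PNPT1. Increases were modest, from a ratio of group means of 1.22 for DTX3L to 1.92 for IFI44L. The log2 fold change was above 0 in 41 of the 49, with a median of 0.18 against -0.04 over all genes tested. In 27 of the 49 every NEAT1siRNA value lay above the CsiRNA range, which held for 11.0% of all genes tested, and in 3 every value lay below it, against 19.3% of all genes. Except where a voom fit is named, fold changes are differences of log2(TPM + 1), a scale on which genes near 1 TPM appear to change less than they do. Voom values are on another scale and are not to be set beside these.

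**Figure D1:**
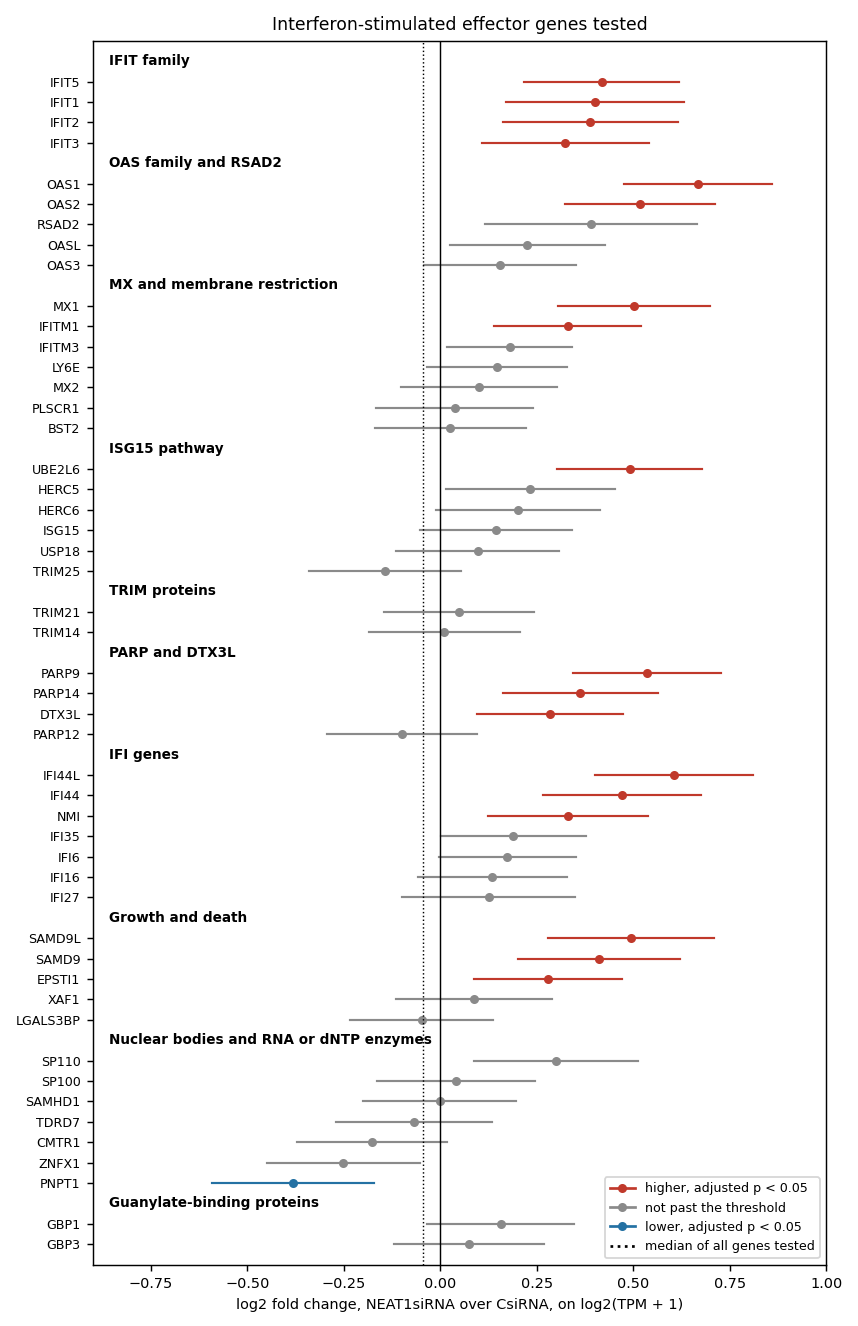
Log2 fold change of NEAT1siRNA over CsiRNA on log2(TPM + 1) (x axis) for the 49 genes tested, ordered within role groups (y axis), with points for the limma estimate and lines for its 95% confidence interval, n = 3 per group. Red marks the 18 genes that rose, blue the 1 that fell and grey the 30 not past the threshold, and the dotted line is the median of all genes tested, -0.04.

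The 4 members of the IFIT family, which bind foreign RNA at its 5′ end or assemble with those that do, lie together on chromosome 10 (IFIT1 at chr10:89392546-89406487, GENCODE on GRCh38) and all passed the test. Of all genes tested, 4.99% were higher. IFIT1 was at 2.42, 2.34 and 2.15 TPM with CsiRNA and at 2.77, 4.35 and 3.11 TPM with NEAT1siRNA. The silenced libraries were all above the controls, replicate 2 by far the most, with a log2 fold change of 0.40 (SE 0.11, adjusted p = 0.0173). IFIT2 went from 1.43, 1.33 and 1.17 TPM to 1.56, 2.53 and 2.05 TPM. Its lowest silenced library was close to its highest control, and the log2 fold change was 0.39 (SE 0.11, adjusted p = 0.0191). IFIT3, which stabilizes IFIT1 complexes, was at 4.23, 4.38 and 3.68 TPM against 5.25, 6.38 and 4.60 TPM. Replicate 3 with NEAT1siRNA was only just above the controls, and the log2 fold change of 0.32 (SE 0.11, adjusted p = 0.0400) was the smallest of the family. IFIT5 was at 5.79, 5.63 and 5.46 TPM in the controls and at 7.19, 9.03 and 7.44 TPM after silencing. Its groups were well apart, with a log2 fold change of 0.42 (SE 0.10, adjusted p = 0.00483).

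Without NEAT1siRNA replicate 2, IFIT1 (log2 fold change 0.25, adjusted p = 0.0973), IFIT2 (0.28, 0.0752) and IFIT3 (0.22, 0.145) were no longer past the threshold. IFIT2 also dropped out without CsiRNA replicate 3 (0.34, 0.0533) or NEAT1siRNA replicate 3 (0.38, 0.0674), and IFIT3 without CsiRNA replicate 1 (0.34, 0.0869) or replicate 3 (0.26, 0.139). IFIT5 stayed past it in each of the 6 fits that left out 1 library.

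Genes for the oligoadenylate synthetases, which make the second messenger that activates RNase L, stand side by side on chromosome 12. OAS1 (chr12:112905856-112933219) was at 3.12, 3.06 and 2.96 TPM with CsiRNA and at 5.10, 5.75 and 5.45 TPM with NEAT1siRNA. The lowest silenced library was well above the highest control, and its log2 fold change of 0.67 (SE 0.09, adjusted p = 2.24e-05) was the largest of the 49. OAS2 (chr12:112978395-113011723) was at 4.89, 4.94 and 4.84 TPM against 7.41, 8.13 and 6.82 TPM. The controls were nearly equal and all silenced libraries higher, giving a log2 fold change of 0.52 (SE 0.09, adjusted p = 0.000475). OAS3, between them on the chromosome at chr12:112938051-112976460, was at 12.4, 11.1 and 11.6 TPM against 13.7, 14.1 and 11.7 TPM. Its groups overlapped, and the log2 fold change was 0.15 (95% interval -0.04 to 0.35, adjusted p = 0.316). It was past the threshold in 4 of the alternatives, among them the voom fit of recovered reads (0.22, adjusted p = 0.0281), and the difference between OAS1 and OAS3 was not tested. OASL, a relative without synthetase activity that aids the RNA sensor RIG-I, had means of 1.43 ± 0.131 and 1.84 ± 0.15 TPM (SD, n = 3) and a log2 fold change of 0.23 (adjusted p = 0.129), with no overlap between the groups. OASL passed in 5 of the alternatives.

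RSAD2 (viperin), which makes a chain-terminating nucleotide, was at 1.86, 2.03 and 1.68 TPM with CsiRNA and at 2.28, 4.15 and 2.08 TPM with NEAT1siRNA. All silenced values were above the controls, replicate 2 far more than the others, and the log2 fold change of 0.39 (SE 0.13) had an adjusted p of 0.0507. Without CsiRNA replicate 2 it was 0.43 (adjusted p = 0.00467), without NEAT1siRNA replicate 1 0.48 (0.00232) and without NEAT1siRNA replicate 3 0.53 (0.0187). Each of these fits kept NEAT1siRNA replicate 2, on which the size of the increase leans. The other silenced values, 2.28 and 2.08 TPM, were close to the highest control of 2.03 TPM. RSAD2 passed in 10 of the alternatives. Its neighbor CMPK2, a nucleotide kinase read from the other strand of chromosome 2, was under the filter at 0.42, 0.474 and 0.37 TPM against 0.591, 0.918 and 0.643 TPM. The annotated genes overlap at their ends, and whether the counting used strand is not given in the sources used here.

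Among the GTPases and membrane restriction factors, 2 of 7 tested genes rose, beside 4.99% of all genes tested. All 7 log2 fold changes were above 0, where the median over all genes tested was -0.04. MX1, a dynamin-like GTPase that blocks viral nucleocapsids (chr21:41420020-41470071), was at 13.4, 13.1 and 12.7 TPM with CsiRNA and at 19.7, 20.6 and 16.7 TPM with NEAT1siRNA. No silenced library reached down to the controls, and the log2 fold change was 0.50 (SE 0.10, adjusted p = 0.000813). Its paralog MX2 overlapped between the groups, with means of 1.93 ± 0.15 and 2.15 ± 0.242 TPM (SD, n = 3) and a log2 fold change of 0.10 (adjusted p = 0.56). IFITM1, one of the proteins that hinder fusion of enveloped viruses, was at 30.8, 27.7 and 26.6 TPM against 35.5, 34.1 and 38.0 TPM. The groups were apart, with a log2 fold change of 0.33 (SE 0.09, adjusted p = 0.0176), but the call was lost without CsiRNA replicate 2 (0.31, adjusted p = 0.0761), CsiRNA replicate 3 (0.29, 0.0582) or NEAT1siRNA replicate 3 (0.29, 0.106). IFITM3, the most abundant of the 57 genes, was at 531, 508 and 528 TPM against 620, 587 and 570 TPM. Its silenced values also lay above the controls, with a log2 fold change of 0.18 (SE 0.08, adjusted p = 0.134). IFITM3 was past the threshold in 6 of the alternatives, among them the voom fit of recovered reads (0.23, adjusted p = 0.0212). The IFITM genes are near-identical in sequence and lie together on chromosome 11, so how reads were divided among IFITM1, IFITM2 and IFITM3 is uncertain. LY6E, a restriction factor of coronaviruses, had means of 88.2 ± 3.22 and 97.9 ± 7.11 TPM (SD, n = 3; log2 fold change 0.15, adjusted p = 0.293). PLSCR1, a phospholipid scramblase, had a log2 fold change of 0.04 (95% interval -0.17 to 0.24), and BST2 (tetherin), which holds budding virus on the cell, one of 0.03 (-0.17 to 0.22), with adjusted p of 0.854 and 0.898.

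ISG15 is a ubiquitin-like protein that is passed along an E1, E2 and E3 cascade onto other proteins. Of the 6 genes of the pathway, its E2 enzyme was past the threshold, where 4.99% of all genes tested were higher. UBE2L6 (chr11:57551656-57568284) was at 11.1, 10.1 and 9.91 TPM with CsiRNA and at 14.7, 14.7 and 15.5 TPM with NEAT1siRNA. Its silenced libraries were close to each other and all above the controls, with a log2 fold change of 0.49 (SE 0.09, adjusted p = 0.000633). ISG15 itself was at 30.6, 33.9 and 29.3 TPM against 35.9, 37.3 and 30.8 TPM. Those ranges overlapped, and the log2 fold change was 0.14 (95% interval -0.05 to 0.34, adjusted p = 0.356). HERC5, the E3 ligase for ISG15, had means of 4.70 ± 0.615 and 5.71 ± 0.855 TPM (SD, n = 3) and a log2 fold change of 0.23 (adjusted p = 0.153). Its relative HERC6 had a log2 fold change of 0.20 (adjusted p = 0.208). HERC5 passed in 5 alternatives and HERC6 in 4, with voom adjusted p of 0.0259 and 0.0338. USP18, which removes ISG15 and restrains the type I receptor, was low at 1.46 ± 0.26 and 1.63 ± 0.143 TPM (SD, n = 3), with a log2 fold change of 0.10 (95% interval -0.11 to 0.31). TRIM25, an E3 ligase, had a log2 fold change of -0.14 (adjusted p = 0.352). TRIM14 and TRIM21, the cytosolic antibody receptor, had log2 fold changes of 0.01 (95% interval -0.19 to 0.21) and 0.05 (-0.15 to 0.24).

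The ADP-ribosylation genes PARP9, DTX3L and PARP14 lie near one another on chromosome 3, and all 3 rose, while PARP12 on chromosome 7 was not past the threshold. PARP9 (chr3:122527924-122564577), the partner of the E3 ligase DTX3L, was at 7.52, 6.74 and 6.74 TPM with CsiRNA and at 10.6, 11.2 and 9.99 TPM with NEAT1siRNA. Every silenced value was well above every control, with a log2 fold change of 0.53 (SE 0.09, adjusted p = 0.000305). PARP14, a mono-ADP-ribosyltransferase, was at 11.0, 9.91 and 9.84 TPM against 13.3, 15.1 and 12.1 TPM. These groups did not overlap either, and the log2 fold change was 0.36 (SE 0.10, adjusted p = 0.0132). DTX3L (chr3:122564338-122575203) was at 32.4, 30.7 and 28.0 TPM against 37.0, 39.3 and 35.1 TPM. Although the groups were apart, the log2 fold change of 0.28 (SE 0.09, adjusted p = 0.0401) lost its call when any library but NEAT1siRNA replicate 2 was left out, with values of 0.33 (adjusted p = 0.0608) without CsiRNA replicate 1, 0.29 (0.105) without CsiRNA replicate 2, 0.23 (0.144) without CsiRNA replicate 3, 0.29 (0.075) without NEAT1siRNA replicate 1 and 0.32 (0.0653) without NEAT1siRNA replicate 3. PARP9 and DTX3L are transcribed away from each other and their annotated ends overlap, so reads there cannot be assigned without strand. PARP12 had means of 7.10 ± 0.247 and 6.58 ± 0.571 TPM (SD, n = 3) and a log2 fold change of -0.10 (adjusted p = 0.547).

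Of the 7 IFI genes, 3 rose, beside 4.99% of all genes tested. All 7 log2 fold changes were above 0, with the median over all genes tested at -0.04. IFI44L (chr1:78619902-78646145), a cytoplasmic protein known as a sensitive marker of interferon exposure, was at 1.45, 1.25 and 1.29 TPM with CsiRNA and at 2.51, 2.87 and 2.26 TPM with NEAT1siRNA. The groups were far apart, with a log2 fold change of 0.60 (SE 0.10, adjusted p = 0.00015). Its neighbor and paralog IFI44 was at 10.5, 10.9 and 9.46 TPM against 13.1, 16.6 and 14.3 TPM. The silenced libraries were again all higher, by a log2 fold change of 0.47 (SE 0.10, adjusted p = 0.00211). NMI, which binds IFI35 and STAT proteins, was at 17.7, 20.4 and 17.4 TPM against 21.6, 27.1 and 22.0 TPM. The gap between the groups was small, the log2 fold change was 0.33 (SE 0.10, adjusted p = 0.0287), and the call was lost without CsiRNA replicate 1 (0.30, adjusted p = 0.127), CsiRNA replicate 3 (0.29, 0.0707) or NEAT1siRNA replicate 2 (0.23, 0.0743). IFI35 and IFI6 had every silenced value above the controls but were not past the threshold, with log2 fold changes of 0.19 (adjusted p = 0.181) and 0.17 (adjusted p = 0.193). IFI16, a nuclear DNA sensor, had a log2 fold change of 0.14 (adjusted p = 0.375), and IFI27, at a mean of only 1.05 ± 0.202 TPM in the controls (SD, n = 3), one of 0.13 (adjusted p = 0.498).

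SAMD9 and SAMD9L, neighboring paralogs on chromosome 7 that restrain translation and growth, both rose, beside 4.99% of all genes tested. SAMD9L (chr7:93130056-93148385) was at 1.93, 1.88 and 1.82 TPM with CsiRNA and at 2.62, 3.75 and 2.88 TPM with NEAT1siRNA. All silenced values exceeded the tightly grouped controls, with a log2 fold change of 0.49 (SE 0.10, adjusted p = 0.00211). SAMD9 (chr7:93099513-93118023) was at 4.54, 3.79 and 3.86 TPM against 5.21, 6.61 and 5.42 TPM. The log2 fold change of 0.41 (SE 0.10, adjusted p = 0.00737) came with groups that did not overlap. EPSTI1, named for its induction by stromal contact in breast cancer cells, was at 5.18, 5.76 and 5.61 TPM against 7.29, 6.78 and 6.67 TPM. Replicate 1 was the highest here, and the log2 fold change of 0.28 (SE 0.09, adjusted p = 0.0447) was not past the threshold without CsiRNA replicate 1 (0.24, adjusted p = 0.17), CsiRNA replicate 2 (0.31, 0.0799), CsiRNA replicate 3 (0.29, 0.0856), NEAT1siRNA replicate 1 (0.25, 0.147) or NEAT1siRNA replicate 3 (0.30, 0.0868). XAF1, which binds the inhibitor of apoptosis XIAP, had a log2 fold change of 0.09 (95% interval -0.11 to 0.29), and LGALS3BP, a secreted galectin-3 ligand, one of -0.05 (-0.23 to 0.14).

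Among nuclear body proteins and enzymes of RNA or dNTPs, 0 of 7 tested genes rose, 1 fell and 6 were not past the threshold. Log2 fold changes were above 0 in 2 of the 7, with a median of -0.07. In the whole set of 10721 genes, 4.99% rose and 8.98% fell, with a median of -0.04. With so few genes, nothing particular to this role group is read from its counts. PNPT1, the polynucleotide phosphorylase of mitochondria (chr2:55634061-55693863), was at 15.2, 14.5 and 12.5 TPM with CsiRNA and at 9.91, 12.2 and 9.72 TPM with NEAT1siRNA. Its highest silenced library was just under its lowest control, with a log2 fold change of -0.38 (SE 0.10, adjusted p = 0.0127). The call was lost without CsiRNA replicate 1 (-0.33, adjusted p = 0.0909) or NEAT1siRNA replicate 3 (-0.33, 0.0862). ZNFX1, a helicase and RNA sensor, and CMTR1, the cap methyltransferase, also had every silenced value below the controls, with log2 fold changes of -0.25 (adjusted p = 0.0837) and -0.18 (adjusted p = 0.232). SP110 pointed the other way, at 3.35, 2.40 and 3.11 TPM against 3.94, 4.05 and 3.54 TPM. Its groups were apart, with a log2 fold change of 0.30 (SE 0.10, adjusted p = 0.0536), which reached 0.37 (adjusted p = 0.0436) without CsiRNA replicate 1. SP110 passed in 9 of the alternatives and ZNFX1 in 3. SP100, a PML body protein, had a log2 fold change of 0.04, the dNTP hydrolase SAMHD1 one of -0.00 (95% interval -0.20 to 0.20), and the Tudor domain protein TDRD7 one of -0.07 (-0.27 to 0.13). Whether the role groups differ from each other was not tested.

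GBP1, a GTPase induced mainly by interferon gamma, was at 18.2, 18.2 and 17.7 TPM with CsiRNA and at 19.7, 22.3 and 18.9 TPM with NEAT1siRNA. Every silenced value was above the controls, but the log2 fold change of 0.16 (95% interval -0.03 to 0.35, adjusted p = 0.29) was not past the threshold. GBP1 passed in 5 of the alternatives. GBP3 had means of 2.01 ± 0.097 and 2.17 ± 0.113 TPM (SD, n = 3) and a log2 fold change of 0.07 (adjusted p = 0.667).

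**Figure D2:**
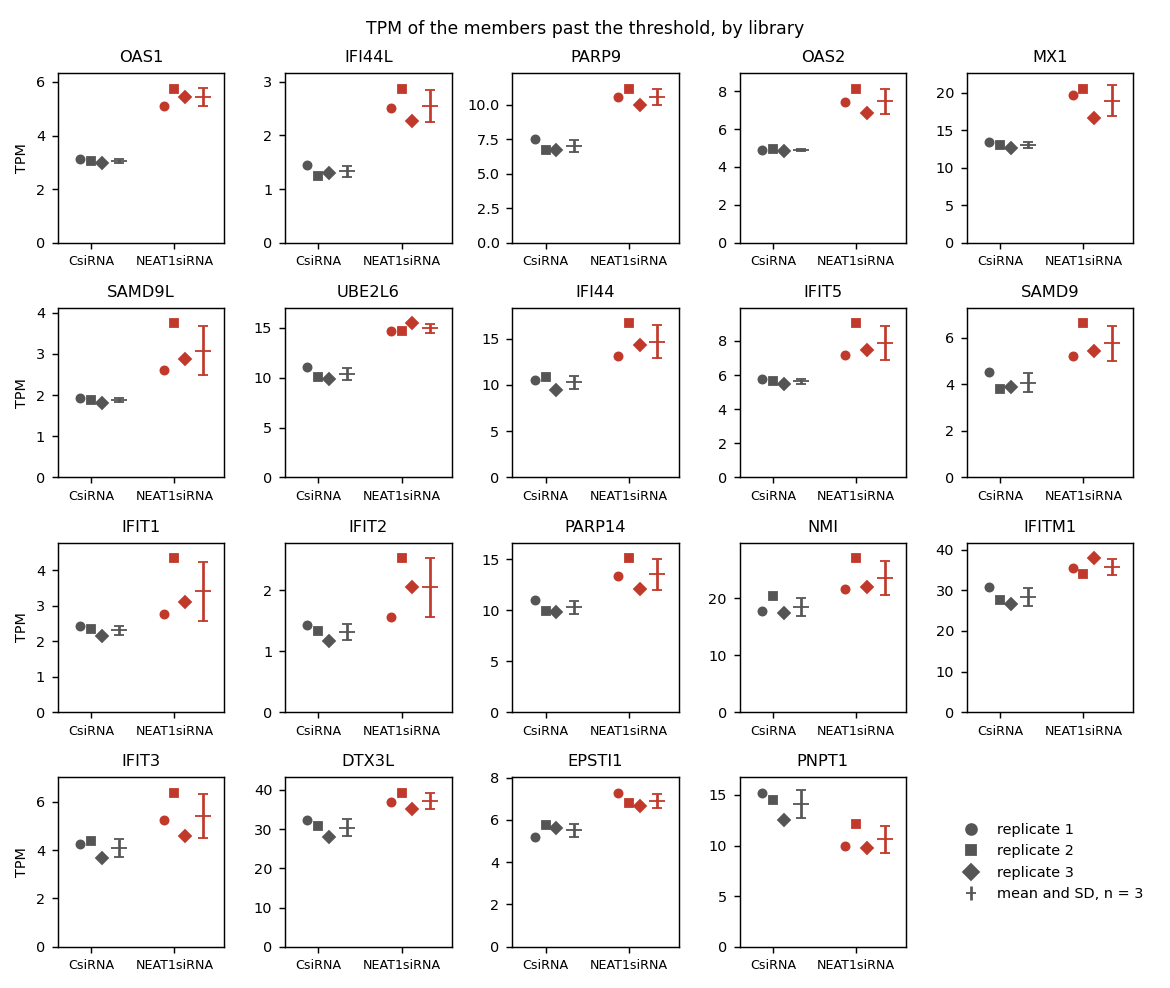
TPM (y axis, each from 0) in the 6 libraries for the 19 genes past the threshold, from the largest to the smallest log2 fold change, with symbols for replicates and bars for mean and SD, n = 3 per group (x axis). The groups do not overlap in any panel, and PNPT1 is the only gene with NEAT1siRNA below CsiRNA.

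The 8 genes under the filter of 1 TPM were read from recovered reads, in a voom fit on genes with a mean of at least 5 such reads that was chosen after seeing the data and in which 10.4% of all genes were higher. TRIM22, a TRIM protein with antiviral activity, had 39 reads in the 3 CsiRNA libraries together and 101 in the 3 with NEAT1siRNA. It was at 0.165, 0.196 and 0.228 TPM against 0.369, 0.771 and 0.394 TPM, all silenced values above the controls, with a log2 fold change of 1.34 (SE 0.33, voom adjusted p = 0.00795). CMPK2 had 113 and 194 reads and a log2 fold change of 0.81 (SE 0.21, adjusted p = 0.0101). GBP2 had 208 and 290 reads, at 0.70, 0.798 and 0.812 TPM against 0.997, 1.17 and 1.09 TPM, and its groups were apart too, with a log2 fold change of 0.54 (SE 0.15, adjusted p = 0.0198). Since each of these is a low gene, the values lean on few reads. The exonuclease gene ISG20 had 53 and 52 reads, IFITM2 27 and 27, and RTP4, a receptor transporter, 12 and 20, none past the threshold in that fit. RTP4 was at 0 in CsiRNA replicate 1, where 3 reads would have been about 0.177 TPM.

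The chemokines CXCL10 and CXCL11, which draw T cells through CXCR3, were nearly silent in these cells. CXCL10 had 12 reads in the CsiRNA libraries and 13 in the NEAT1siRNA libraries, between 0.148 and 0.232 TPM. CXCL11 had 1 read in all 6 libraries and was at 0 in 5 of them, where 3 reads would have been about 0.0858 TPM, and a change in either was not detectable at this depth.

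The increase was present in each silenced library. Against the CsiRNA mean, the median over the 49 tested genes was 0.19, 0.26 and 0.14 (log2(TPM + 1)) in NEAT1siRNA replicates 1, 2 and 3, where the median over all genes tested was -0.05, 0.02 and -0.11. In the controls it was 0.05, 0.00 and -0.05. Over the 18 genes that rose, chosen for that difference, the medians were 0.33, 0.60 and 0.38. Replicate 2 with NEAT1siRNA was the highest silenced library for 15 of these 18 and for 36 of the 49, beside 59.5% of all genes tested. These medians thus differed between the silenced libraries, and why was not tested. That the 18 lay above the controls goes with how they were chosen and is no separate result.

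**Figure D3:**
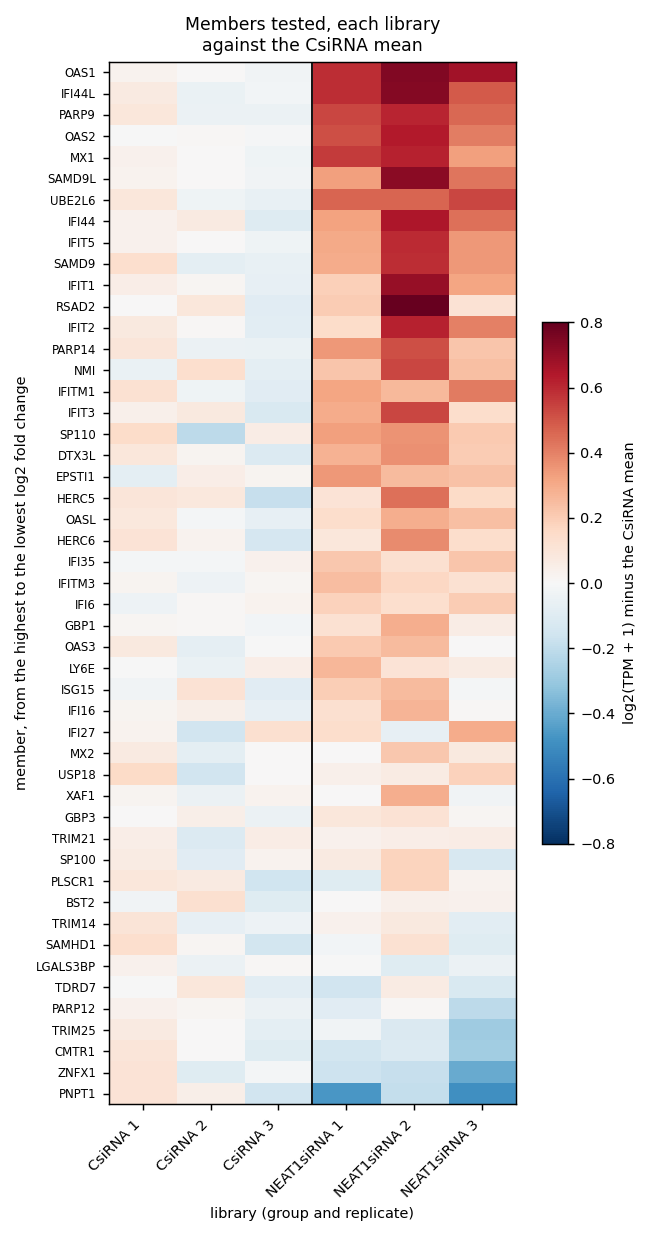
Heat map of log2(TPM + 1) minus the CsiRNA mean (color) for the 49 genes tested (rows, from the highest to the lowest log2 fold change) in the 6 libraries (columns). The first rows are red in all NEAT1siRNA columns and darkest in replicate 2, and PNPT1 in the last row is blue in all 3.

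Base composition differed between the libraries and also between the genes. Across 10424 tested genes with an annotated transcript, the deviation of a library from its group mean followed GC content with Spearman rho of -0.21, -0.34 and 0.47 in the CsiRNA libraries and 0.68, -0.73 and 0.14 in the NEAT1siRNA libraries, so that replicate 2 with NEAT1siRNA was tilted toward AT-rich transcripts and replicate 1 toward GC-rich ones. The median GC content was 47.3% over all these genes, 45.6% over the 49, 43.0% over the 18 that rose and 50.9% over the 31 tested that did not rise. Over the 49 genes the log2 fold change had a Spearman rho with GC content of -0.32, which describes genes of the same 6 libraries and carries no test, and over all genes it was -0.09. Once the GC and length trend of each library was taken out, rho over the 49 was -0.28, 22 genes were higher and 1 lower, beside 7.90% and 14.9% of all genes. All 18 genes that rose and PNPT1 stayed past the threshold there, and OASL, RSAD2, HERC5 and SP110 were added, with adjusted p of 0.0229, 0.000746, 0.0275 and 0.00884. Replicate 2 was still the highest for 14 of the 18, with medians over them of 0.37, 0.52 and 0.36 in NEAT1siRNA replicates 1, 2 and 3.

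**Figure D4:**
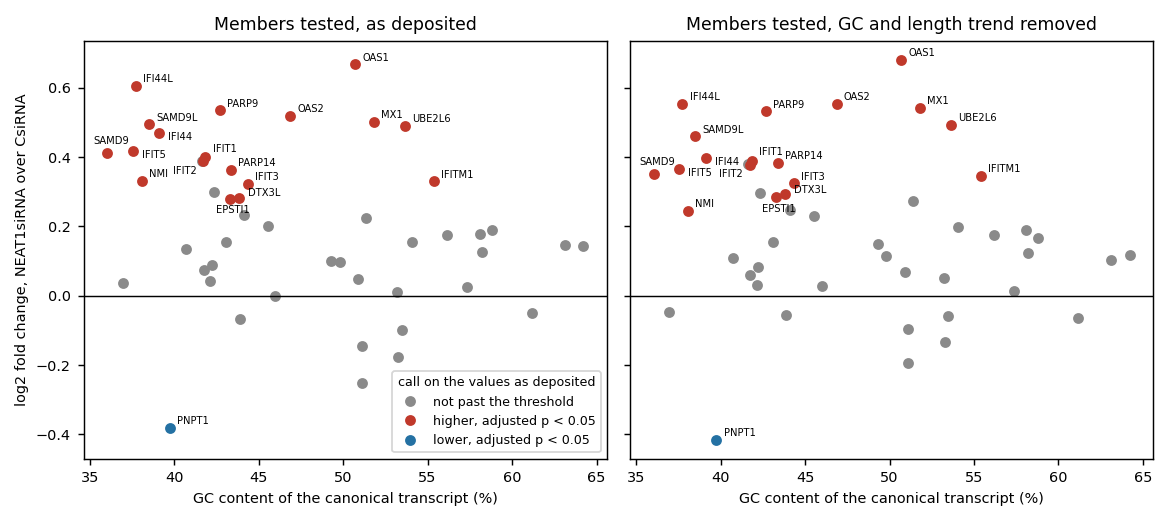
Log2 fold change on log2(TPM + 1) (y axis) against GC content of the transcript in percent (x axis) for the 49 genes tested, as deposited (left) and with the GC and length trend of each library removed (right). Red and blue mark the 18 and 1 genes past the threshold on the left, and in both panels they keep their side of 0, with AT-rich genes such as IFI44L somewhat lower on the right.

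In a fit of recovered reads (voom), which weights genes by their counts, 25 of the 49 were higher and 2 (PNPT1 and ZNFX1) lower, where 11.0% of all genes tested were higher and 11.9% lower. There the log2 fold change of IFI44L was 0.99 (SE 0.10), that of OAS1 0.88 (SE 0.10) and that of SAMD9L 0.75 (SE 0.11), on the voom scale. OAS1, OAS2, MX1, UBE2L6, PARP9 and IFI44L kept their call in every alternative of scaling, filter, model, unit and library left out that was run at an adjusted p of 0.05. Without the filter on TPM, limma over 18531 genes called 6 of the 49 higher, beside 1.31% of all genes, and 0 lower, so that PNPT1 and 12 of the 18 were lost.

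The genes that make, sense and relay the interferon signal were counted next, from a hand-written list of 40, of which 24 were tested. Among these, 2 were higher, 1 was lower and 21 were not past the threshold, with a median log2 fold change of 0.08. These are small counts beside the 4.99% higher and 8.98% lower over all genes tested, and nothing particular to the list is read from them. All 9 interferon genes listed were under the filter. IFNE was the highest of them, at 0.586, 0.540 and 0.380 TPM with CsiRNA and 0.218, 0.310 and 0.233 TPM with NEAT1siRNA. It had 41 and 21 reads and was not past the threshold in the voom fit on genes with a mean of at least 5 reads (adjusted p = 0.0908). IFNB1 was at most 0.151 TPM. The receptors IFNAR1, IFNAR2, IFNGR1, IFNGR2 and IL10RB were at 6.56 to 39.6 TPM with none past the threshold in this fit, and the kinases JAK1, JAK2 and TYK2 likewise. STAT2 (-0.16, adjusted p = 0.339) and IRF9 (0.10, adjusted p = 0.548), members of the ISRE-binding complex, were not past the threshold, nor were IRF1, IRF2, IRF3, IRF7, STAT3, SOCS3 and PIAS1.

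The 3 genes past the threshold in this fit were among the 7 sensors and adaptors tested. With quantile normalization, centring or voom, 6 of the 24 were higher, and in voom these included IFNGR2 (adjusted p = 0.00979), IL10RB (0.029), IRF2 (0.00816) and IRF1 (0.0475), beside 11.0% of all genes. Whether the roles differ from each other was not tested. IFIH1 (MDA5), the sensor of long double-stranded RNA, was at 3.22, 2.56 and 2.63 TPM with CsiRNA and at 3.82, 4.67 and 3.54 TPM with NEAT1siRNA. The groups did not overlap, and the log2 fold change was 0.40 (SE 0.10, adjusted p = 0.0116). TLR3, the endosomal sensor of double-stranded RNA, was at 1.52, 1.45 and 1.34 TPM against 1.99, 2.64 and 2.07 TPM. Its groups were apart as well, with a log2 fold change of 0.40 (SE 0.10, adjusted p = 0.00789). Without the filter on TPM, the adjusted p of IFIH1 was 0.138 and that of TLR3 0.0848. ADAR, the enzyme that deaminates adenosine in double-stranded RNA and is itself an interferon-stimulated gene, was at 66.2, 61.5 and 62.7 TPM against 52.8, 50.4 and 48.8 TPM. Every silenced value lay below every control, with a log2 fold change of -0.32 (SE 0.09, adjusted p = 0.0150), which was -0.29 without CsiRNA replicate 1 (adjusted p = 0.0935) and -0.29 without NEAT1siRNA replicate 3 (0.0842). CGAS, the sensor of cytosolic DNA, had a log2 fold change of -0.24 (adjusted p = 0.121). EIF2AK2 (PKR), DDX58 (RIG-I) and MAVS had log2 fold changes of 0.11, 0.06 and 0.05. DHX58, another listed sensor, was under the filter with 75 reads in the CsiRNA and 122 in the NEAT1siRNA libraries. In the voom fit on genes with a mean of at least 5 reads it was higher (0.75, adjusted p = 0.0272), beside 10.4% of all genes.

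**Figure D5:**
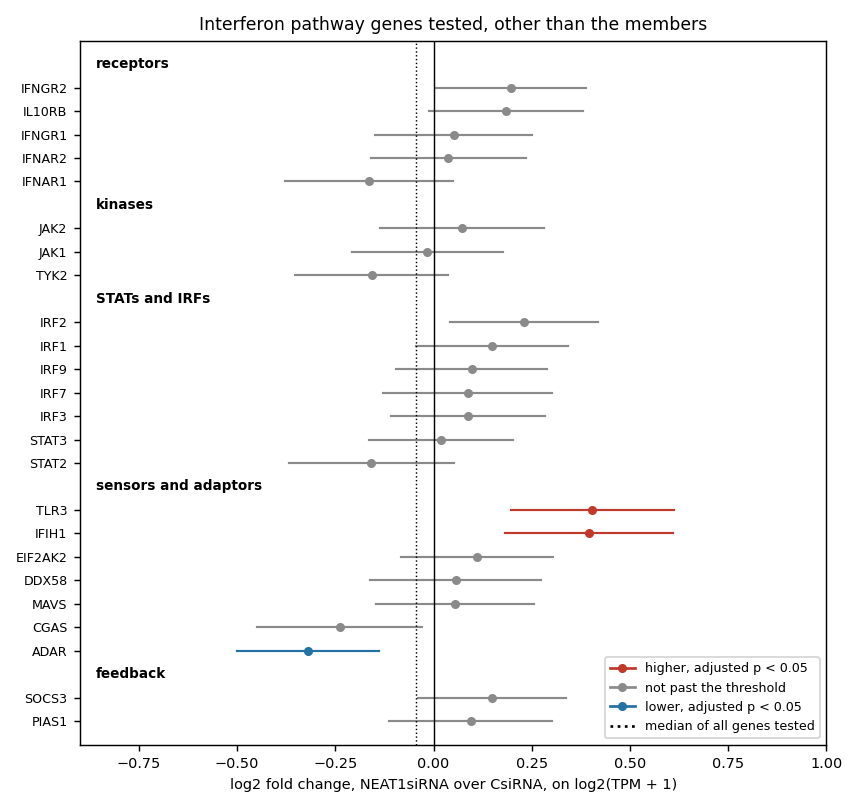
Log2 fold change of NEAT1siRNA over CsiRNA on log2(TPM + 1) (x axis) for the 24 tested genes of the signaling list, by role (y axis), with 95% confidence intervals, n = 3 per group. TLR3 and IFIH1 (red) are past the threshold above 0, ADAR (blue) below 0, and the receptors, kinases, STATs and IRFs are all grey.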

How the data were processed

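RNA-seq of BT-549 cells was analysed for 3 CsiRNA and 3 NEAT1siRNA libraries, grouped by their titles. The authors prepared TruSeq stranded mRNA libraries from total RNA, aligned reads to GRCh38 with STAR and compared gene counts with DESeq2. The step from reads to TPM is not given in the sources used here. The authors deposited TPM per gene and library (25545 genes, summing to 1000000) and a table of their comparison, of which only the signal column of mean normalized counts was used, a mean of all 6 libraries scaled by size factors. Its fold changes and p-values were not used. TPM keep no depth, so reads were recovered by joining both tables. Of the recovered values, 99.8% lay within 0.05 of a whole read for genes with a mean count under 5 and 12.6% for those of at least 500, so reads of high genes are approximate, in part since effective lengths differ between libraries. Read counts and the floor of 3 reads cover counting error only.

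Groups were compared with limma 3.58.1 in R 4.3.3 (lmFit, eBayes with trend) on log2(TPM + 1), without covariates, for the 10721 genes whose mean TPM reached 1. P-values were two-sided, Benjamini-Hochberg adjusted and called under 0.05. An exact permutation test of 3 against 3 cannot go below p = 0.1 and was not used. Intervals are 95%. Gene coordinates, GC content and length are from GENCODE v44 on GRCh38, matched for 97.2% of genes tested by symbol. The trend on GC content and length was fitted per library with natural splines of 4 degrees of freedom each. MB21D1 is listed as CGAS. The procedure was tested on simulated data. Python 3.11.15 with numpy 2.4.6, pandas 2.3.3 and matplotlib 3.10.9 was used for the rest.

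The 57 genes, their roles, the signaling list and the markers were chosen with earlier results of these data known, so no p-value is given for a list. A gene of the signaling list is not reported here and was left out of its counts. All 57 are named: those past the threshold with every value, the others with group values, fold changes or ranges. NEAT1, the tested genes of the signaling list past the threshold and the markers were named too. Settings varied were the pseudocount, the filter on TPM, the scaling, the trend in eBayes, the replicate number as a block, the GC and length trend, voom on recovered reads, each library left out in turn and an adjusted p under 0.01.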

Additional observations from a re-analysis of the deposited data

How the results depend on the processing

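All 18 increases and the decrease of PNPT1 kept their direction in every alternative that gave a value. The counts of genes higher and lower among the 49 (18 and 1) were 6 and 0 without the filter on TPM, 11 higher of the 32 with a mean TPM of at least 5, 28 higher with each library centred on its median, 25 and 2 with voom on recovered reads, 28 and 2 with voom on genes with a mean of at least 5 reads, and 10 and 0 at an adjusted p under 0.01. Leaving out 1 library gave 12 to 17 higher and 0 to 2 lower. The median log2 fold change of the 49 was 0.18 on log2(TPM + 1), where that of all genes tested was -0.04. In the voom fits, on their own scale, it was 0.24 and 0.25 for the effector genes and -0.001 and 0.005 for all genes. In the signaling list the counts (2 higher, 1 lower) were 1 higher without the filter and 0 higher with a mean TPM of at least 5. They were 6 higher with quantile normalization, centring or either voom fit, and 5 higher without the 4 short RNAs. With the GC and length trend removed, IFIH1, TLR3 and IRF2 (limma adjusted p = 0.0299) were higher and 2 were lower, ADAR and CGAS (0.0332). The counts were 4 higher and 2 lower with that and the replicate block, and 1 and 0 at an adjusted p under 0.01. Leaving out 1 library gave 2 higher throughout and 0 to 3 lower. The causes of these differences were not tested, apart from fewer genes or samples where the setting itself removes them. Over all genes, 535 higher and 963 lower became 1082 and 1109 with quantile normalization, 1158 and 954 with centring, 1182 and 1280 with voom, and 242 and 263 without the filter. At a mean TPM of at least 5 they were 357 and 675 of 7237 genes, and at an adjusted p under 0.01 276 and 443. The voom fit on genes with a mean of at least 5 reads gave 1400 and 1351 of 13502. With 1 library left out, 376 to 540 of all genes were higher and 383 to 1590 lower.

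The replicate numbers are not said to pair the samples, and deviations from the group means correlated between same-numbered libraries by -0.03, 0.25 and -0.11, so a paired reading has no basis in the design. With the replicate number as a replicate block, 19 of the tested effector genes were higher and 1 lower, beside 579 and 1061 of all 10721 genes. With the GC and length trend removed as well, the counts were 24 and 1, beside 905 and 1748 of all 10424 genes. Calls over all genes thus also rose in number with the trend removed.

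Values changed sign only for genes that were not past the threshold. SAMHD1 (-0.00) was at 0.035 with quantile normalization, 0.056 with centring, 0.031 without the 4 short RNAs, 0.028 with the GC and length trend removed, alone or with the replicate block, and 0.049 in both voom fits. LGALS3BP was at 0.0068 with quantile normalization and 0.0082 with centring, and PLSCR1 at -0.047 with the trend removed, alone or with the block. Leaving out 1 library gave ranges across 0 for SAMHD1 (-0.074 to 0.065), PLSCR1 (-0.043 to 0.105), TRIM14 (-0.023 to 0.063), SP100 (-0.027 to 0.125), BST2 (-0.024 to 0.090), TRIM21 (-0.0065 to 0.077) and XAF1 (-0.012 to 0.146). Depth limits the 8 genes under the filter, of which CXCL10 and CXCL11 had 13 reads or fewer per group.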

Other observations

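A further list of 36 interferon-stimulated genes was written after the values of the 57 had been seen and before those of the list were looked at, and 35 were found. Of the 22 tested, 5 were higher and 0 lower, with a median log2 fold change of 0.05, where 4.99% of all genes were higher. IDO1, the tryptophan-degrading enzyme induced by interferon gamma, rose from 1.07, 1.36 and 1.03 TPM to 2.28, 3.05 and 2.38 TPM. Every silenced value was above the controls, and the log2 fold change was 0.73 (SE 0.11, limma adjusted p = 3.8e-05). GBP4, a guanylate-binding protein, was at 1.5, 1.65 and 1.42 TPM with CsiRNA and at 2.41, 3.53 and 2.47 TPM with NEAT1siRNA (log2 fold change 0.58, SE 0.11, adjusted p = 0.000668). APOL6 had a log2 fold change of 0.43 (adjusted p = 0.00549), the helicase DDX60 one of 0.32 (adjusted p = 0.0467), and WARS, the tryptophanyl-tRNA synthetase, one of 0.28 (adjusted p = 0.0296). The other 17 tested, among them PML, MOV10, ZC3HAV1 and CASP4, were not past the threshold.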
